A study of Rattus norvegicus with 6 samples.

Results

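Cholesterol, SREBP and fatty acid synthesis genes were followed in cells of the rat nucleus pulposus, the gelatinous core of the intervertebral disc, after cyclic stretching. A list of 40 genes was taken by symbol out of 22573 genes in the deposited tables, and all 40 were found. They comprise 7 enzymes of the mevalonate steps, 12 enzymes of the sterol steps, 7 genes of cholesterol uptake, transport, storage and efflux, 5 regulators around the SREBP transcription factors, and 9 enzymes of fatty acid synthesis. RNA sequencing gave 3 strain libraries, from cells stretched cyclically (18% elongation at 0.2 Hz for 24 h on a Flexcell tension system), and 3 control libraries, all from Sprague Dawley rats. The stretching text stands on every sample, so the controls are taken as unstretched from their class label alone. The labels leave unsaid whether replicates were separate animals or separate cultures. The p-values therefore set the difference between the groups only against the spread among these samples, and that spread may be technical. The comparison asks what stretching does to the transcriptome, here to the genes that make and handle cholesterol and fatty acids.

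Cells build cholesterol from acetyl-CoA through mevalonate, isoprenoid intermediates, squalene and lanosterol, and fatty acids from the same acetyl-CoA through malonyl-CoA. The genes of both routes are driven by the sterol regulatory element-binding proteins (SREBPs), which are made as membrane-bound precursors. When membrane cholesterol is low, the escort protein SCAP takes the precursors to the Golgi for cleavage, and when sterols are plentiful, INSIG proteins hold SCAP in the endoplasmic reticulum. SREBP-2, the product of Srebf2, acts mainly on cholesterol genes and SREBP-1, the product of Srebf1, mainly on fatty acid genes.

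The values are taken as FPKM, fragment numbers scaled to transcript length and to the size of the library. Levels of different genes can then be set side by side only as far as the transcript lengths used, which are not given, were right. Libraries summed to between 308780 and 347508 FPKM, with no read totals, so their depth is unknown. Among nucleus pulposus and notochordal markers 9 of 15 in the tables had a mean of at least 1 FPKM, among them Acan, Sox9, Pax1 and Mgp, and 7 of the 9 rose. The list summed to 11658 to 13887 FPKM in strained cells and 4949.7 to 5330 FPKM in control cells, most of it Mgp. The markers under that mean were Col2a1, at 0.445, 0.838 and 1.41 FPKM in strained cells and at most 0.0682 FPKM in control cells, T, Krt18 and Krt19, each at most 0.139 FPKM in any library, Car12, at most 0.816 FPKM, and Shh, listed at 0. Of 10 adipocyte markers 1, Fabp4, had a mean of at least 1 FPKM (lower in strained cells, limma adjusted p = 0.00207), and Adipoq and Retn were listed at 0. The adipocyte markers summed to 0.830 to 1.44 FPKM in strained cells and 2.31 to 4.36 FPKM in control cells. Of 10 macrophage and leukocyte markers 4 reached a mean of 1 FPKM, Ptprc stayed at or under 0.0486 FPKM and Cd163 was listed at 0, with sums of 20.1 to 23.4 FPKM in strained cells and 17.6 to 24.1 FPKM in control cells. Most of that sum was Cd14, which was not called (15.5 to 16.1 FPKM in strained cells and 13.4 to 15.9 FPKM in control cells), while the other 3 tested markers of this list were called, in both directions. Cd68 fell to 0.531 to 0.802 FPKM in strained cells, against 1.24 to 2.01 FPKM in control cells (limma adjusted p = 0.00885), and Adgre1 to 1.20 to 1.38 FPKM, against 1.75 to 5.58 FPKM (limma adjusted p = 0.0299). Lyz2 rose to 2.06 to 5.13 FPKM in strained cells, against 0.166 to 0.413 FPKM in control cells (limma adjusted p = 0.000678). No endothelial marker of 6 reached a mean of 1 FPKM, and their sums were 0.841 to 1.01 FPKM in strained cells and 1.33 to 1.9 FPKM in control cells, most of it Flt1 in the control libraries. Of 6 tendon and annulus fibrosus markers 5 reached it, 4 of these rose, Tnmd was listed at 0, and the sums were 4729 to 5825 FPKM in strained cells and 1835 to 2321 FPKM in control cells, most of it Col1a1. The part of these marker shifts in the results was not tested.

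Strained cells had lower RNA levels of 27 of the 37 listed genes that passed the filter, and no listed gene rose. A gene was tested when its mean over the 6 libraries was at least 1 FPKM, and it is said to have fallen or risen when limma gave a Benjamini-Hochberg adjusted p under 0.05 over all 10180 tested genes. Of all tested genes, 19.0% fell, 16.4% rose and 35.4% were called in either direction. For rises in the list, the count with an unadjusted p under 0.05 was also 0. The median log2 fold change was -0.74 over the 37 tested genes of the list and -0.01 over all tested genes. In 27 of the 37 tested genes of the list, the same 27 that fell, the 3 strain values lay under the 3 control values. This separation was seen in 28.0% of all tested genes. The reverse separation, seen in 24.0% of all tested genes, occurred in no tested gene of the list. The 3 listed genes outside the filter were Abcg1, Insig1 and Elovl6. Scaling each library to the same summed FPKM turned the balance over all genes to 2079 rises and 1550 falls, against 1672 rises and 1936 falls as deposited, and 23 genes of the list then fell, with 0 rises. These are bulk samples, so fewer cells of a type and less RNA per cell cannot be told apart.

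Over the 37 tested genes of the list, the median log2 difference from the control mean was -0.68 in strain replicate 1. It was -0.78 in strain replicate 2, -0.83 in strain replicate 3 and -0.06 to 0.07 in the single control libraries. Over the 27 fallen genes it was -1.08, -1.17 and -1.07 in strain replicates 1, 2 and 3. In the control libraries it was then -0.09 to 0.08. The 27 genes were chosen by the call on these same libraries, so their lower and closer medians follow in part from that choice. Strain replicate 2 was the lowest of the strain libraries in 14 of the 27 genes and strain replicate 1 the highest in 15.

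The summed level of the 19 cholesterol synthesis enzymes was 359, 314 and 359 FPKM in the strain libraries, against 908, 800.1 and 846 FPKM in the control libraries. As a share of the summed FPKM of its library this came to 0.106% ± 0.006 in strained cells and 0.252% ± 0.011 in control cells (SD, n = 3 each), 2.38-fold lower. The 9 enzymes of fatty acid synthesis summed to 93.7, 90.5 and 92.6 FPKM in the strain libraries, against 177, 155 and 174 FPKM in the control libraries. Their share was 0.0285% ± 0.00162 in strained cells and 0.0499% ± 0.00295 in control cells, 1.75-fold lower. Elovl6, among the 9, was listed at 0 in every library and adds nothing to this sum or share. The groups did not overlap in either share. With 3 samples against 3 an exact permutation test cannot give a two-sided p under 0.1, so no p is given for these sums.

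**Figure D1:**
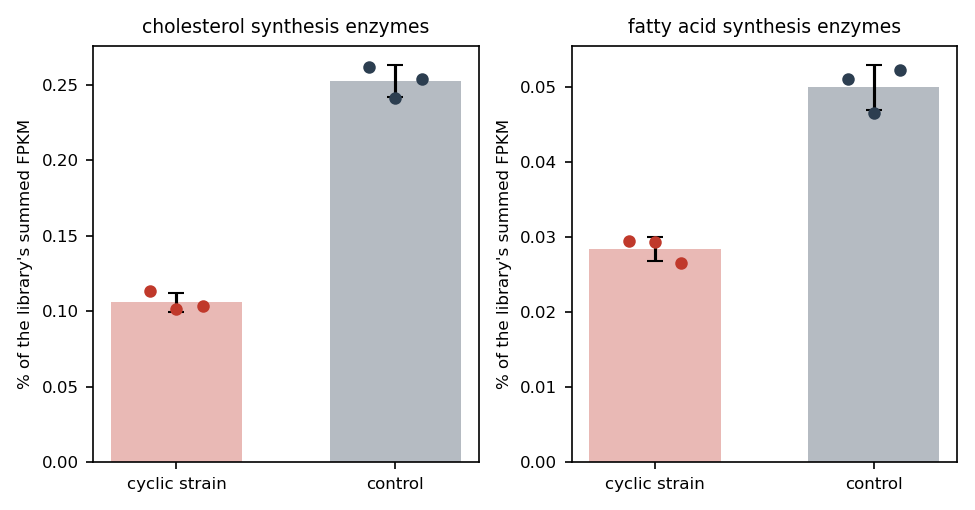
Share of each library's summed FPKM (vertical axis, in percent) held by the 19 cholesterol synthesis enzymes (left) and the 9 fatty acid synthesis enzymes (right); points are libraries, bars are means and error bars the SD of 3 libraries. The cyclic strain libraries lie at 0.102% to 0.113% and 0.0266% to 0.0295%, under the control libraries at 0.241% to 0.262% and 0.0466% to 0.0522%.

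Of the 7 mevalonate enzymes 5 fell and 2, Mvk and Pmvk, were not called. Acat2, the cytosolic thiolase that joins acetyl-CoA units, was at 5.39, 4.80 and 6.48 FPKM in strained cells, against 16.9, 13.1 and 15.2 FPKM in control cells. Hmgcs1, which makes HMG-CoA, was at 27.8, 22.9 and 20.9 FPKM in strained cells, against 93.0, 80.3 and 89.8 FPKM in control cells. It fell 3.68-fold (log2 fold change -1.84 ± 0.12 SE, limma adjusted p = 2.5e-05), and Acat2 fell 2.71-fold. No strain library of either gene came near a control library.

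The next 2 steps are phosphorylations of mevalonate, and neither of their genes was called. Mvk, mevalonate kinase, was at 4.54, 4.56 and 5.79 FPKM in strained cells, against 5.53, 5.67 and 6.05 FPKM in control cells. Strain replicate 3 lay among the controls, and the log2 fold change was -0.18 (95% interval -0.43 to 0.07, limma adjusted p = 0.222). Without strain replicate 3 Mvk was called lower (adjusted p = 0.0393, with a range of 0.0393 to 0.461 over 14 alternatives). Pmvk, phosphomevalonate kinase, was at 22.0, 19.1 and 19.2 FPKM in strained cells, against 19.9, 16.3 and 14.3 FPKM in control cells. Its strain values overlapped the highest control, and its log2 fold change of 0.25 (95% interval -0.03 to 0.53, limma adjusted p = 0.148) was the only estimate of the mevalonate group above 0.

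The remaining 3 enzymes of this stretch fell. Mvd, the decarboxylase that makes isopentenyl diphosphate, was at 8.42, 7.67 and 11.4 FPKM in strained cells, against 24.5, 21.0 and 22.1 FPKM in control cells, 2.46-fold lower. Idi1, the isomerase that balances the pair of five-carbon building blocks, was at 10.5, 7.54 and 8.76 FPKM in strained cells, against 42.2, 35.6 and 42.1 FPKM in control cells. Its log2 fold change of -2.05 ± 0.12 SE (limma adjusted p = 2.5e-05) was the lowest among the cholesterol enzymes and ranked 88 from the lowest of the 10180 tested genes. Fdps, farnesyl diphosphate synthase, had the highest control level of the 40 genes after Npc2. It was at 73.1, 65.6 and 90.3 FPKM in strained cells, against 199, 159 and 192 FPKM in control cells, 2.41-fold lower.

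Of the 12 sterol enzymes 11 fell and 1, Ebp, was not called. Fdft1 and Sqle, the squalene synthase and the squalene epoxidase that commit farnesyl units to sterols, fell 2.31-fold and 2.39-fold. Sqle was at 22.5, 19.4 and 20.0 FPKM in strained cells, against 54.0, 46.2 and 47.8 FPKM in control cells. Lss, lanosterol synthase, which closes the sterol rings, was at 13.6, 13.0 and 10.3 FPKM in strained cells, against 17.2, 18.6 and 15.7 FPKM in control cells. Its groups did not overlap, but the fall was 1.40-fold (log2 fold change -0.46 ± 0.12 SE, limma adjusted p = 0.016). The call was lost without control replicate 1 (adjusted p = 0.0545), without control replicate 2 (0.0572) and with equal summed FPKM (0.0532; 0.0149 to 0.0572 over 14 alternatives).

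The enzymes that strip the methyl groups of lanosterol also fell, among them the abundant Cyp51 and Msmo1. Cyp51, lanosterol demethylase, was at 45.6, 43.6 and 44.1 FPKM in strained cells, against 112, 101 and 112 FPKM in control cells, 2.44-fold lower. Msmo1, the C4-methylsterol oxidase, was at 60.3, 45.8 and 54.5 FPKM in strained cells, against 189, 175 and 162 FPKM in control cells, 3.27-fold lower. Its partners in C4 demethylation are Nsdhl, a sterol dehydrogenase, and Hsd17b7, a sterol ketoreductase. Nsdhl averaged 9.81 ± 1.12 FPKM in strained cells and 20.5 ± 1.63 FPKM in control cells (SD, n = 3 each). Hsd17b7 was at 3.21, 2.70 and 2.71 FPKM in strained cells, against 14.7, 11.6 and 13.5 FPKM in control cells, which at 4.62-fold was the largest ratio of means in cholesterol synthesis.

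Tm7sf2 and Lbr encode enzymes that can both reduce the C14 double bond of the sterol nucleus, and LBR is also the lamin B receptor of the inner nuclear membrane. Tm7sf2 was at 3.25, 3.59 and 2.75 FPKM in strained cells, against 7.92, 10.6 and 8.73 FPKM in control cells, 2.85-fold lower. Lbr was at 4.14, 4.72 and 3.54 FPKM in strained cells, against 6.49, 9.03 and 5.96 FPKM in control cells, 1.73-fold lower. Within a library the ratio of Lbr to Tm7sf2 was 1.28, 1.32 and 1.29 in strained cells, against 0.819, 0.849 and 0.683 in control cells. By these values Lbr lay above Tm7sf2 in all 3 strain libraries and under it in all 3 control libraries. Which gene is the more abundant also depends on the transcript lengths used, which are not given.

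The last steps turn the ring system into cholesterol. Ebp, the sterol isomerase, was at 17.2, 15.0 and 20.2 FPKM in strained cells, against 20.6, 20.2 and 19.7 FPKM in control cells (log2 fold change -0.21, 95% interval -0.46 to 0.05, limma adjusted p = 0.18). Strain replicate 3 reached the control range, and without it Ebp was called lower (adjusted p = 0.0241; 0.0241 to 0.498 over 14 alternatives). Sc5d, the lathosterol desaturase, was at 10.1, 10.1 and 9.88 FPKM in strained cells, against 23.7, 21.4 and 22.6 FPKM in control cells, 2.25-fold lower. Dhcr7, the reductase of 7-dehydrocholesterol, was at 3.39, 3.45 and 4.57 FPKM in strained cells, against 6.75, 7.03 and 7.18 FPKM in control cells, 1.84-fold lower.

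**Figure D2:**
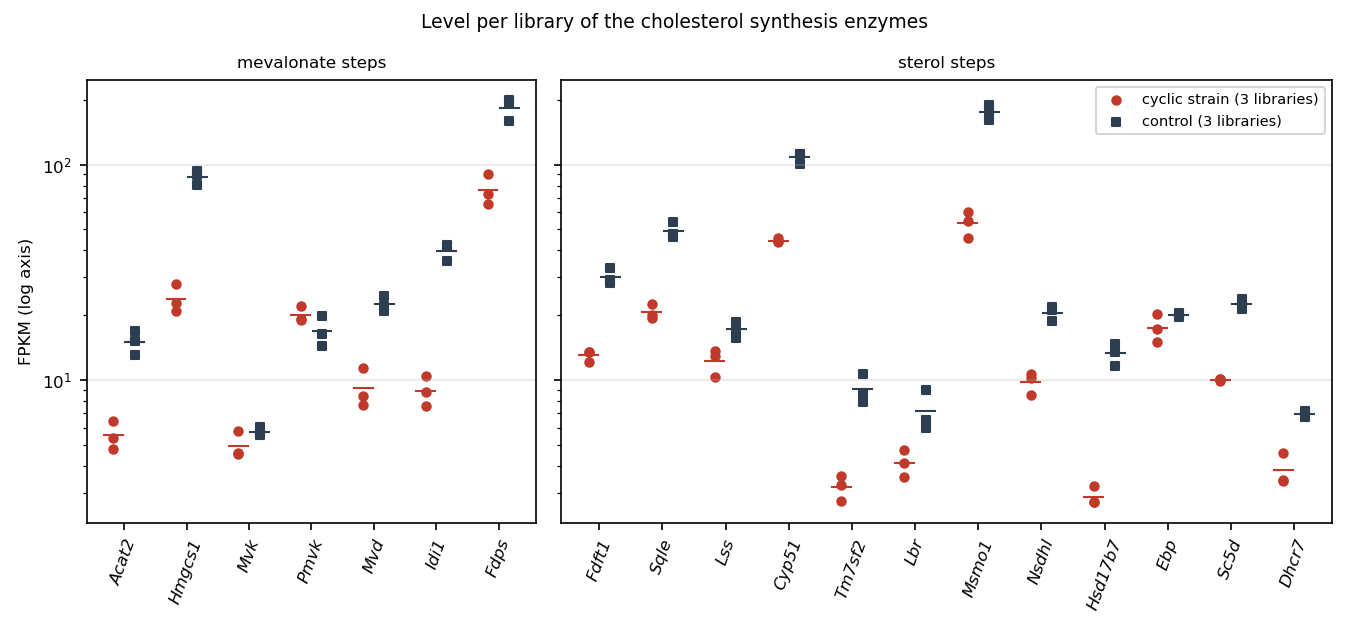
FPKM on a log axis (vertical) of the 19 cholesterol synthesis enzymes (horizontal, in pathway order), with 3 cyclic strain libraries as circles, 3 control libraries as squares and group means as lines. The groups are apart for 16 enzymes, with Idi1 at 7.54 to 10.5 FPKM under strain and 35.6 to 42.2 FPKM in controls, and overlap for Mvk, Pmvk and Ebp.

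The promoters of the 4 cholesterol enzymes with the lowest log2 fold changes (Idi1, Hsd17b7, Hmgcs1 and Msmo1) are given to show the letters around their start sites. They are RefSeq windows of rat build GRCr8, each of 300 bases, 250 before the annotated start and 50 from it on, written 5′ to 3′ along the gene. Capitals mark the CCAAT box, read as CCAAT or, on the other strand, ATTGG, which is bound by NF-Y, a factor known to act with SREBPs at sterol genes. Idi1 lies on the minus strand at chr17:66547475-66547774, Hsd17b7 on the minus strand at chr13:84722705-84723004, Hmgcs1 on the plus strand at chr2:53382054-53382353 and Msmo1 on the plus strand at chr16:29746863-29747162.
Idi1: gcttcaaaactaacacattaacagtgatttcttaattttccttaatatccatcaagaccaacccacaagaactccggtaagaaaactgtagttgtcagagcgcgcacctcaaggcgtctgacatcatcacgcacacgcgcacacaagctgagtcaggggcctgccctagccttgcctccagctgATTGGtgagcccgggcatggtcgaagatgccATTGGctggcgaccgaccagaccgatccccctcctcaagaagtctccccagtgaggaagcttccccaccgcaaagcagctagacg
Hsd17b7: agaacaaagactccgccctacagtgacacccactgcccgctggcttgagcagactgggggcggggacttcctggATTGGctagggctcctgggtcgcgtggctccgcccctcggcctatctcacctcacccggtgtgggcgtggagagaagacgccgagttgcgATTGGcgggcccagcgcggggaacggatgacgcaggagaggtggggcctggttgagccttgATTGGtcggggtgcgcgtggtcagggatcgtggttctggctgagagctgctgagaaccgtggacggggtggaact
Hmgcs1: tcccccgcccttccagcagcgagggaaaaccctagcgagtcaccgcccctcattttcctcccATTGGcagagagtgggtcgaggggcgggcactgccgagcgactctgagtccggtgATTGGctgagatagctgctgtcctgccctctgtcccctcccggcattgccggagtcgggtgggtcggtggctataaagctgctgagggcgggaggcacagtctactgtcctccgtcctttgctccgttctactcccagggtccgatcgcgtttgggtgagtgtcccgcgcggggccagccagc
Msmo1: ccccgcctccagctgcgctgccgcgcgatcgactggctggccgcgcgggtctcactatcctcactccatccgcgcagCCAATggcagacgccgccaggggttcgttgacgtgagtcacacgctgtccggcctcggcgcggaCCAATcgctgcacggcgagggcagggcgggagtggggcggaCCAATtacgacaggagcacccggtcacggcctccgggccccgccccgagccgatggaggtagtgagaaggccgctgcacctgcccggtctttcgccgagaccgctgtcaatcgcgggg
Idi1 and Hmgcs1 have 2 CCAAT boxes each, beginning 66 and 35 bases before the start in Idi1 and 188 and 133 bases before it in Hmgcs1. Hsd17b7 and Msmo1 have 3 each, beginning 176, 86 and 25 bases and 173, 109 and 68 bases before the start.

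A single window was matched by symbol for 31 of the 40 genes. Those left out were Pmvk, Fdft1, Sqle, Stard4, Abcg1, Acaca, Fasn and Elovl6, and Srebf1, for which 2 windows are given. Both strands were searched for 3 motifs: the sterol regulatory element TCACNCCAC, the CCAAT box and the E-box CACGTG, which SREBP-1 and the clock factors can bind. A TCACNCCAC match can share end letters with either of the others, which cannot overlap each other. CCAAT was found in 22 of the 31 windows (71.0%), against 37.5% of all 33469 windows, 38.1% of 7339 windows of tested genes and 36.3% of 1397 windows of genes that fell. It was in 17 of 22 windows of listed genes that fell and 5 of 9 windows of the others. Mvk and Ebp, which were not called, have 5 and 2 CCAAT boxes. The fallen genes with a window but no CCAAT box were Acat2, Cyp51, Dhcr7, Aacs and Scd. CACGTG was in 4 of 31 windows (12.9%), against 6.42% of all windows, 10.1% of those of tested genes and 11.1% of those of genes that fell. It was in 1 of 22 windows of listed genes that fell and 3 of 9 windows of the others. Those 9 others include Insig1, which was not tested and whose window holds both CCAAT and CACGTG. TCACNCCAC was in none of the 31, in 1.12% of all windows, 1.21% of those of tested genes and 1.72% of those of genes that fell; its absence says only that these letters are not in these windows. A match describes letters and is not evidence that a factor is bound.

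Among the regulators 1 of 4 tested genes fell and 3 were not called. Srebf2 was at 20.8, 20.8 and 20.7 FPKM in strained cells, against 33.1, 30.0 and 30.6 FPKM in control cells. It fell 1.50-fold (log2 fold change -0.56 ± 0.08 SE, limma adjusted p = 0.00096), with strain libraries that were nearly alike. Srebf1 was at 9.67, 9.58 and 11.4 FPKM in strained cells, against 10.5, 12.1 and 10.7 FPKM in control cells, and the groups overlapped (log2 fold change -0.11, 95% interval -0.34 to 0.12, limma adjusted p = 0.432). The ratio of Srebf2 to Srebf1 within a library was 2.05 ± 0.20 in strained cells and 2.84 ± 0.34 in control cells (SD, n = 3 each). Both ranges of this ratio lay apart, at 1.82 to 2.18 in strained cells and 2.48 to 3.17 in control cells.

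Scap was at 11.7, 10.6 and 12.8 FPKM in strained cells, against 12.6, 11.9 and 11.7 FPKM in control cells. Its estimate was near 0 (log2 fold change -0.04, 95% interval -0.26 to 0.17, limma adjusted p = 0.769), and it was above 0 under all 3 other scalings. Insig2 was at 12.8, 10.5 and 11.2 FPKM in strained cells, against 11.9, 8.64 and 11.2 FPKM in control cells (log2 fold change 0.12, 95% interval -0.18 to 0.41, limma adjusted p = 0.514). Insig1, the other INSIG gene and itself a well-known SREBP target, was listed at 0 in all 6 libraries. An exact 0 in such a table can be a failed estimate, so nothing is read from it.

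Genes that move or store cholesterol changed less than those that make it, by their median log2 fold changes of -0.36 (6 tested genes) and -1.22 (19 tested genes); this difference was not tested. Stard4, a carrier of cholesterol between membranes, was at 1.15, 1.03 and 0.845 FPKM in strained cells, against 3.10, 2.41 and 3.14 FPKM in control cells, 2.86-fold lower by means (log2 fold change -0.95 ± 0.12 SE, limma adjusted p = 0.000473). Npc1 and Npc2 pass cholesterol out of the lysosome. Npc2 was at 149.6, 140.2 and 172 FPKM in strained cells, against 226, 208 and 209 FPKM in control cells, and fell 1.39-fold (limma adjusted p = 0.00764). Npc1 was at 25.7, 22.9 and 21.1 FPKM in strained cells, against 27.1, 29.0 and 25.5 FPKM in control cells. Strain replicate 1 overlapped the lowest control of Npc1, which was not called (limma adjusted p = 0.109).

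Soat1, which esterifies cholesterol for storage, was at 32.4, 32.4 and 24.9 FPKM in strained cells, against 39.7, 43.8 and 39.7 FPKM in control cells. It fell 1.37-fold (limma adjusted p = 0.0149), but was not called without control replicate 2 (adjusted p = 0.0532) or with equal summed FPKM (0.0558; 0.0126 to 0.0558 over 14 alternatives). Mylip, an E3 ligase that marks lipoprotein receptors for degradation, averaged 3.77 ± 0.07 FPKM in strained cells and 4.78 ± 0.32 FPKM in control cells (SD, n = 3 each). Its groups did not overlap, at 3.71 to 3.85 and 4.41 to 5.02 FPKM, but its limma adjusted p of 0.0478 lay at the threshold and was above it in 8 of 13 alternatives.

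The efflux pumps were weakly expressed. Abca1, which loads cholesterol onto apolipoproteins, was at 1.60, 1.94 and 1.38 FPKM in strained cells, against 2.22, 1.94 and 2.38 FPKM in control cells, and was not called (limma adjusted p = 0.0997). Abcg1 was at 0.0801, 0.016 and 0.0791 FPKM in strained cells, against 0.208, 0.0783 and 0.259 FPKM in control cells, under the filter and too low for a fold change.

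Of the 8 tested fatty acid enzymes 6 fell and 2 were not called. Acly and Acss2 supply cytosolic acetyl-CoA, from citrate and from acetate. Acly was at 34.8, 32.2 and 32.7 FPKM in strained cells, against 60.0, 52.1 and 57.0 FPKM in control cells, 1.69-fold lower. Acss2 was at 6.91, 6.33 and 7.04 FPKM in strained cells, against 8.67, 7.94 and 8.35 FPKM in control cells, 1.23-fold lower. The Acss2 call (limma adjusted p = 0.0484) was lost in 10 of 14 alternatives, although its groups did not overlap. Aacs, which activates the ketone body acetoacetate for lipid synthesis, fell further, at 6.46, 7.14 and 7.47 FPKM in strained cells against 19.0, 17.5 and 18.3 FPKM in control cells, 2.60-fold lower.

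Acaca, acetyl-CoA carboxylase, makes malonyl-CoA, and Fasn builds palmitate from it. Acaca was at 4.62, 4.98 and 3.35 FPKM in strained cells, against 6.92, 6.19 and 7.17 FPKM in control cells, 1.57-fold lower (limma adjusted p = 0.0115). Fasn was at 17.1, 15.8 and 15.2 FPKM in strained cells, against 38.8, 32.2 and 40.7 FPKM in control cells, 2.32-fold lower (limma adjusted p = 0.000103). The elongase gene Elovl6, which extends palmitate, was listed at 0 in all 6 libraries. As with Insig1, this can be a failed estimate, so nothing is read from it.

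The desaturases split. Scd, the stearoyl-CoA desaturase that makes monounsaturated fatty acids, was at 4.28, 3.31 and 3.77 FPKM in strained cells, against 22.4, 17.5 and 21.6 FPKM in control cells. Its 5.42-fold fall was the largest in the list (log2 fold change -2.17 ± 0.12 SE, limma adjusted p = 1.67e-05), and ranked 79 from the lowest of all tested genes. The rat genome has other Scd genes of similar sequence, so its value is uncertain to the extent that fragments shared with them were split. Fads1 and Fads2, the desaturases of polyunsaturated fatty acids, had overlapping groups and were not called. Fads1 was at 11.9, 12.4 and 15.2 FPKM in strained cells, against 11.7, 12.7 and 13.0 FPKM in control cells (log2 fold change 0.07, 95% interval -0.18 to 0.31, limma adjusted p = 0.663). Fads2 was at 7.68, 8.26 and 7.88 FPKM in strained cells, against 9.20, 8.62 and 8.01 FPKM in control cells (log2 fold change -0.10, 95% interval -0.31 to 0.10, limma adjusted p = 0.406). Within a library the ratio of Scd to Fads1 was 0.292 ± 0.060 in strained cells and 1.65 ± 0.27 in control cells (SD, n = 3 each). By these values Scd lay under Fads1 in every strain library and above it in every control library. Which gene is the more abundant also depends on the transcript lengths used.

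**Figure D3:**
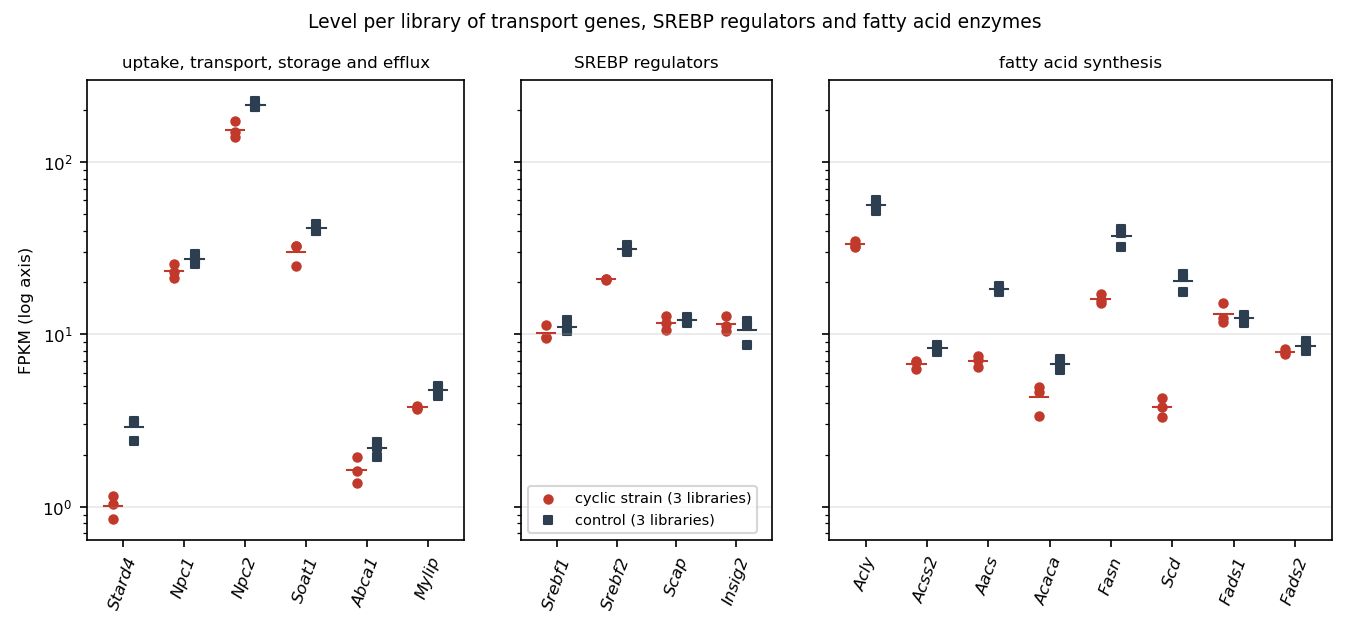
FPKM on a log axis (vertical) of the tested transport genes, SREBP regulators and fatty acid enzymes (horizontal), with 3 cyclic strain libraries as circles, 3 control libraries as squares and group means as lines. Scd lies at 3.31 to 4.28 FPKM under strain and 17.5 to 22.4 FPKM in controls. Npc1, Abca1, Srebf1, Scap, Insig2, Fads1 and Fads2 overlap between the groups.

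**Figure D4:**
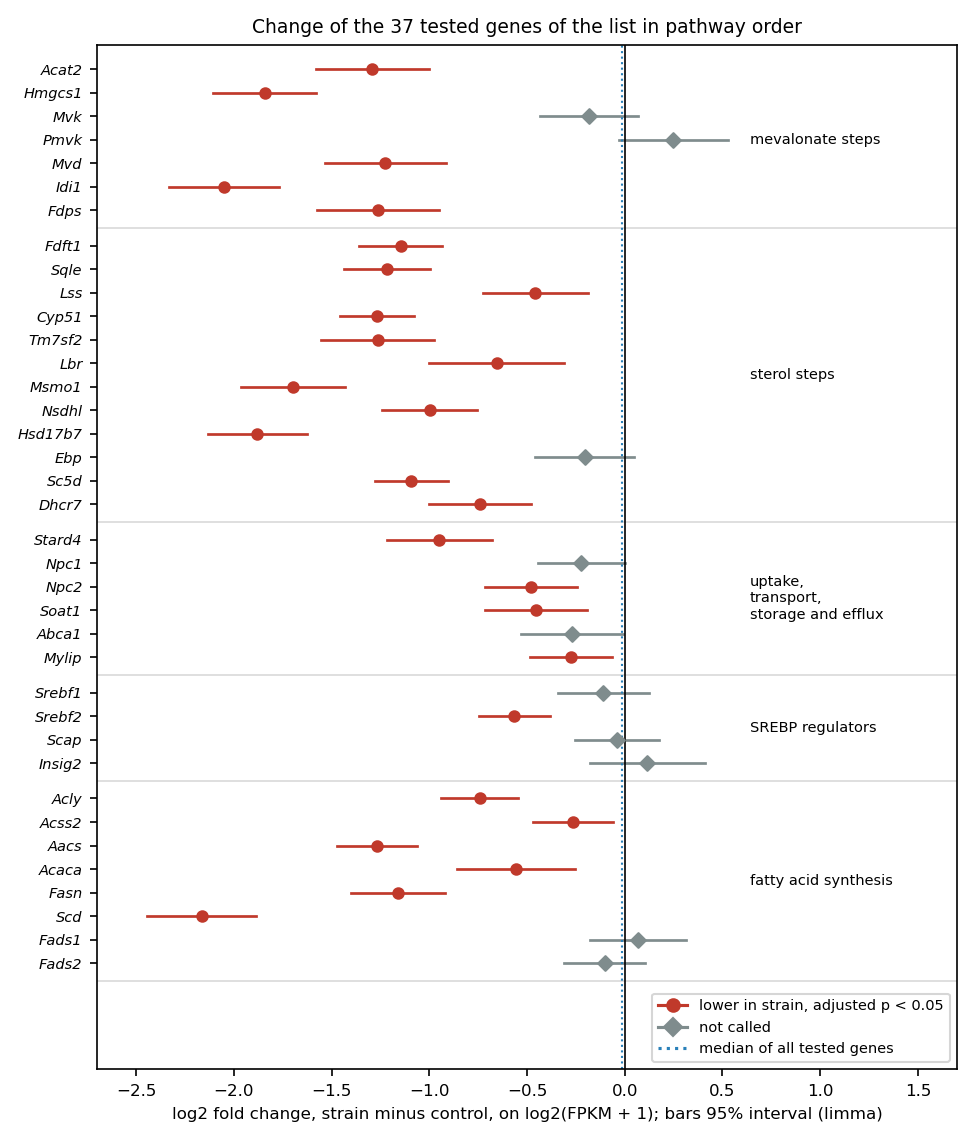
Log2 fold change of strain over control on the log2(FPKM + 1) scale (horizontal) for the 37 tested genes in pathway order (vertical), with limma's 95% intervals; circles are genes called lower, diamonds genes not called, the dotted line the median of all tested genes. The 27 called genes lie between -2.17 (Scd) and -0.26 (Acss2), and the 10 others between -0.27 (Abca1) and 0.25 (Pmvk).

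Genes next to these routes gave mixed counts. Among all tested genes 19% fell and 16.4% rose, and no neighbouring list was tested against these shares. Of 13 tested genes of the isoprenoid branch and protein prenylation 1 rose and 1 fell. Fntb, the beta subunit of protein farnesyltransferase, rose to 14.5 ± 2.01 FPKM in strained cells, against 8.03 ± 0.61 FPKM in control cells (SD, n = 3 each), and Ggps1, which makes geranylgeranyl diphosphate, fell 1.45-fold to 4.58 ± 0.33 FPKM. Of 14 genes of SREBP processing and sterol sensing 3 rose and 0 fell by limma (1 with an unadjusted p under 0.05). Paqr3, a Golgi anchor of SCAP, rose 1.80-fold (limma adjusted p = 0.00157) and Mbtps1, the site-1 protease that cleaves SREBPs, rose 1.26-fold (limma adjusted p = 0.0206). The Mbtps1 call was lost without strain replicate 1, control replicate 1 or control replicate 3 (adjusted p = 0.0638, 0.0647 and 0.0795) and with the replicate block (0.0535; 0.0054 to 0.0795 over 14 alternatives).

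Of 12 genes that make or bind oxysterols 3 rose and 3 fell. Ch25h, which makes 25-hydroxycholesterol, a suppressor of SREBP processing, was at 9.03, 3.33 and 3.87 FPKM in strained cells, against 40.5, 36.6 and 36.6 FPKM in control cells. It fell 7.01-fold (limma adjusted p = 0.000565), and without strain replicate 1, its highest strain library, the strain mean was 3.60 FPKM, 10.5-fold lower than controls. Cyp7b1, which hydroxylates oxysterols for breakdown, was at 104, 71.9 and 56.0 FPKM in strained cells, against 282, 252 and 283 FPKM in control cells, 3.52-fold lower. The oxysterol-binding protein genes Osbpl9 and Osbpl1a rose 1.35-fold and 1.41-fold.

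Of 15 tested genes of lipoprotein uptake and cholesterol transport 5 rose and 2 fell. Scarb2, a lysosomal membrane protein, rose 1.43-fold to 87.8 ± 10.4 FPKM in strained cells. Scp2, a sterol carrier protein, rose 1.35-fold, a call lost without control replicate 1 (adjusted p = 0.0518, with a range of 0.00336 to 0.0518 over 14 alternatives). The receptor gene Lrp8 fell 2.05-fold to 1.96 ± 0.25 FPKM, and Nceh1, a cholesteryl ester hydrolase, fell 1.65-fold to 14.8 ± 1.66 FPKM. Of 22 tested genes of fatty acid elongation, activation and entry into glycerolipids 7 fell and 2 rose. Acsl3, an acyl-CoA synthetase, fell 2.07-fold and Elovl4, an elongase of very long chains, 3.73-fold, each with limma adjusted p = 0.000103. Gpam, which starts glycerolipid synthesis, rose 1.71-fold and Agpat2, the next acyltransferase, 1.32-fold. The Agpat2 call was lost without strain replicate 2, control replicate 1 or control replicate 2 (adjusted p = 0.0617, 0.0603 and 0.0519; 0.00833 to 0.0617 over 14 alternatives).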

How the data were processed

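The authors deposited 1 table per sample with a gene symbol and a value taken as FPKM: the values were not whole numbers, differed in their sums and came with Cufflinks and Cuffdiff 2.2.1 named, beside cutadapt 1.9.3, HISAT2 2.0.4 and DESeq, per the submitters' processing notes. For the role of each tool, the annotation and any scaling between libraries, details are not given in the sources used here. Those notes name hg19, which is human, whereas the samples are rat, so no coordinates come from the files. The 27 rows whose symbol had become a date (0.191% to 0.232% of each sum) and 1 damaged row were left out.

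limma 3.58.1 in R 4.3.3 compared strain with control on log2(FPKM + 1) of the 10180 genes whose mean reached 1 FPKM, with trend and robust moderation, two-sided, and was checked on simulated data. Log2 fold changes on this scale understate the change of low genes. Folds without log are ratios of group means of FPKM. FPKM keep no depth, so no counting interval was computed. The genes and lists were chosen with earlier results of these data known, as were the motifs and the ratios within libraries. All listed genes are named; of each neighbouring list, the 2 called genes with the smallest adjusted p in each direction are named. Ch25h's values without strain replicate 1 were added after they were seen. Alternatives changed the pseudocount, filter, scaling, moderation or block, or left out a library. Promoter windows were matched to RefSeq (GRCr8) by symbol.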

Additional observations from a re-analysis of the deposited data

How the results depend on the processing

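The number of listed genes called lower was 23 to 29 over 14 alternatives, against 27 as reported, and the number called higher was 0 in each. With each library left out in turn it was 24 to 29, and the median log2 fold change of the list was -0.74 to -0.68. Of the 27 genes called lower, 23 were called lower in every alternative that tested them. The others were Lss, Soat1, Mylip and Acss2. Over all genes the count of calls was 2363 to 3572 with each library left out, against 3608; the lowest came without control replicate 1, and the cause was not tested. Estimates near 0 changed sign without a call. The log2 fold change of Scap was 0.0255 after quantile normalization, 0.0082 after median scaling, 0.012 with equal summed FPKM (a scaling added after the data were seen) and -0.1007 to 0.0207 with each library left out, highest without strain replicate 2. With each library left out, that of Insig2 was -0.0108 (without control replicate 2) to 0.1984 and that of Fads1 -0.0326 (without strain replicate 3) to 0.1318.

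Samples share replicate numbers. Deviations of same-numbered samples correlated at 0.033, 0.108 and -0.116, within the range of -0.21 to 0.12 for differently numbered samples. Only the 0.108 of replicate 2 reached the minimum of 0.1 set for pairing, so the numbers were not taken as pairs. With the replicate block 3116 genes were called over all and 25 of the list fell. FPKM give no depth, so how far low genes such as Abcg1 can be resolved is unknown.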
